A study of Mus musculus with 8 samples.

Results

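The solute carriers examined here are the 77 genes of the SLC2, 5, 17, 19, 22, 23, 27, 28, 29, 33, 35, 37, 44 to 48, 50 and 52 families that were listed among the 15288 genes of a count table from mouse inner medullary collecting duct (IMCD) cells. They were picked by a rule on gene symbols that leaves out Slc2a1 and Slc5a3. Slc5a3, the sodium-coupled inositol carrier, had 229 ± 8.78 CPM in control and 517 ± 33.2 CPM in NaCl libraries (log2 fold change 1.18, edgeR adjusted p = 7.79e-12). Members of 18 of these families were listed, and no gene of SLC28, the concentrative nucleoside carriers, was among them. The cells are an established kidney cell line, grown to near confluence in high-glucose, pyruvate-containing medium with serum and then held for 12 h in serum-free DMEM. The control group had no added NaCl (replicates 1 to 4), and the NaCl group received 100 mmol NaCl, which the labels give without a volume (replicates 5 to 8). Both groups were therefore serum-free. Nothing in the labels says that the 4 libraries of a group came from separate cultures, so p-values measure the spread between these libraries, which may be technical.

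SLC carriers move small organic molecules across membranes, either down a gradient or coupled to sodium, protons or an exchanged solute. The families here differ in cargo and in place. GLUT (SLC2) and sodium-coupled (SLC5) carriers take up hexoses and vitamins at the cell surface, SLC22 and SLC47 handle organic ions and carnitine, SLC27 and SLC44 serve lipid synthesis with fatty acids and choline, SLC29 equilibrates nucleosides, and SLC35 feeds nucleotide sugars and sulphate donors into the Golgi and endoplasmic reticulum. Medullary cells in hypertonic surroundings are known to accumulate sorbitol, inositol, betaine, taurine and glycerophosphocholine, some of which are made from hexoses and choline.

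Total counts ran from 35.29 M to 47.57 M per library and did not differ between the groups beyond their spread (control mean 43.5 M with SD 2.71, NaCl mean 40.2 M with SD 3.32, 4 libraries each; p = 0.143 by exact permutation, two-sided). Control replicate 1 (47.57 M) and NaCl replicate 5 (35.29 M) stood apart in depth. Of 12 principal cell markers, 11 were listed, and their summed level was 389 to 484 CPM (counts scaled to a common library total) in control and 378 to 449.8 CPM in NaCl libraries, carried mostly by Krt18, Krt8 and Hoxb7. Of the 9 tested, Avpr2 and Cdh1 were called higher and Scnn1g, Hoxb7 and Gata3 lower. Aqp2, the defining water channel of that cell type, reached at most 0.363 CPM, and Fxyd4 was not listed. The 4 fibroblast markers summed to 2744 to 3164 CPM in control and 2444 to 2814 CPM in NaCl libraries, mostly from Col1a1, which was called lower, while Pdgfrb was called higher. None of 5 intercalated cell markers and 1 of 3 endothelial markers were listed. The 2 listed immune markers summed to 5.95 to 7.19 CPM in control and 14.9 to 15.3 CPM in NaCl libraries through Ptprc, which was called higher, while Cd68 had 2.41 ± 0.342 and 1.69 ± 0.348 CPM and was not called (adjusted p = 0.0573). The part that these marker changes have in the results was not tested. In bulk RNA, fewer cells of a type and less RNA per cell cannot be told apart.

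Promoter sequence is shown for 4 carriers on which the results below turn. Slc17a1 and Slc45a3 had the strongest rises, and Slc22a5 and Slc22a4 lie in a single gene cluster on chromosome 11 where the latter was called lower and the former was not called. Each line is the 250 bases before the RefSeq transcription start (GRCm38.p6), 5′ to 3′ on the gene's own strand. Capitals mark the letters TGGAAA on either strand (TTTCCA where they lie on the other strand), the core of the tonicity-responsive element TonE that NFAT5 binds.
Slc17a1: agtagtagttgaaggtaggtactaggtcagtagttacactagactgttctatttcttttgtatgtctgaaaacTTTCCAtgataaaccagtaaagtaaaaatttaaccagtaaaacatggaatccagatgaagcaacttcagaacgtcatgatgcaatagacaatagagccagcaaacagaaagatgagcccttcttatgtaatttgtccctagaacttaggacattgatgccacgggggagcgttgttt
Slc45a3: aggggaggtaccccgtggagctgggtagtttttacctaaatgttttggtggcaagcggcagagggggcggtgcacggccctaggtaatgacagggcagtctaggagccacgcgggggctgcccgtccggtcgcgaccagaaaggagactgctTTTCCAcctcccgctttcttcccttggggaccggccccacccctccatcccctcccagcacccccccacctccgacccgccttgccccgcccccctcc
Slc22a5: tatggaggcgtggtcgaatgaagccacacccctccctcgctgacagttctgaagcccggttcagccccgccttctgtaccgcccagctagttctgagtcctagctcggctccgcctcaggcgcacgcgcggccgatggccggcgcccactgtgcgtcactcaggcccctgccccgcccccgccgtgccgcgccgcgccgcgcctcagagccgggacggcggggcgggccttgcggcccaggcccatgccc
Slc22a4: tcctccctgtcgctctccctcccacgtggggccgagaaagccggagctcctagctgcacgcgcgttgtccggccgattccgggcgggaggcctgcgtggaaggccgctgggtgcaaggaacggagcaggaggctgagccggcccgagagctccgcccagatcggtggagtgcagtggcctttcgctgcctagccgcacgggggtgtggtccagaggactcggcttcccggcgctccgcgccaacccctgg
The Slc17a1 stretch is chr13:23868768-23869017 on the plus strand and the Slc45a3 stretch is chr1:131962665-131962914 on the plus strand. The Slc22a5 stretch is chr11:53891704-53891953 and the Slc22a4 stretch chr11:54028105-54028354, both on the minus strand. Slc17a1 and Slc45a3 each have a further annotated start, which is not printed. The 250 bases before it hold no TGGAAA for Slc17a1 and 1 for Slc45a3. The printed Slc17a1 stretch is 38% G or C, against 66.8% for Slc45a3, 73.6% for Slc22a5 and 71.2% for Slc22a4.

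The letters TGGAAA were searched on both strands of windows from 250 bases before to 50 bases after each start. Of the carriers, 62 of 77 matched a RefSeq window, and 12 of these 62 (19.4%) held TGGAAA, against 23.9% of all 27025 genes with a window. The full TonE consensus, 11 letters long and overlapping TGGAAA by construction, was in the windows of 2 carriers (3.23%, against 5.74% of all genes). These were Slc17a1, with the match 182 to 172 bases before the printed start, and Slc29a1, with it just after a start. Slc17a1 rose and Slc29a1 fell with NaCl. A match is a run of letters, and no binding was measured.

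Transcript levels were compared between carriers as CPM per kb of exon, which removes the effect of length. The most abundant was Slc48a1, a heme carrier of endolysosomes, with 30.7 ± 0.692 in control and 32.6 ± 0.542 in NaCl libraries (CPM per kb, SD, n = 4 each). It was followed by Slc35a4 (25.5 ± 1.07 in control). Next in control came Slc33a1, which brings acetyl-CoA into the endoplasmic reticulum (22.96 ± 1.12), Slc35f5 (21.5 ± 1.54) and Slc35e1 (21.2 ± 0.382), whose values overlapped, so their order is not resolved. In control, Slc35b2, the carrier of the sulphate donor PAPS, had a lower mean (18.9 ± 0.277), but in NaCl libraries its 22.3 ± 0.789 CPM per kb overlapped Slc33a1 (22.8 ± 0.574) and Slc35f5 (20.9 ± 2.395). The next was Slc44a1, a choline carrier (18.6 ± 0.629).

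Among the 77 carriers, which leave out Slc2a1, the classical sugar carriers were scarce by the same measure. Slc2a8, an intracellular hexose carrier, was the highest of the 9 SLC2 members here, at 3.18 ± 0.125 CPM per kb in control and 3.505 ± 0.3002 in NaCl libraries, and gave 68.5% of the summed SLC2 CPM. The sodium-glucose carrier Slc5a2 had 2 to 11 counts in any library, and Slc2a3 had 1 to 18 counts. Slc50a1, a sugar efflux carrier, was higher, at 14.4 ± 1.195 in control and 16.1 ± 0.562 in NaCl libraries (CPM per kb). The excluded Slc2a1, the main glucose carrier of most cultured cells, had 255 ± 29.9 CPM in control and 270.4 ± 80.6 CPM in NaCl libraries and was not called (edgeR adjusted p = 0.821). Its control mean was above the highest control mean of the 77 carriers (129.5 CPM, Slc44a2), in CPM not scaled for length.

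**Figure D1:**
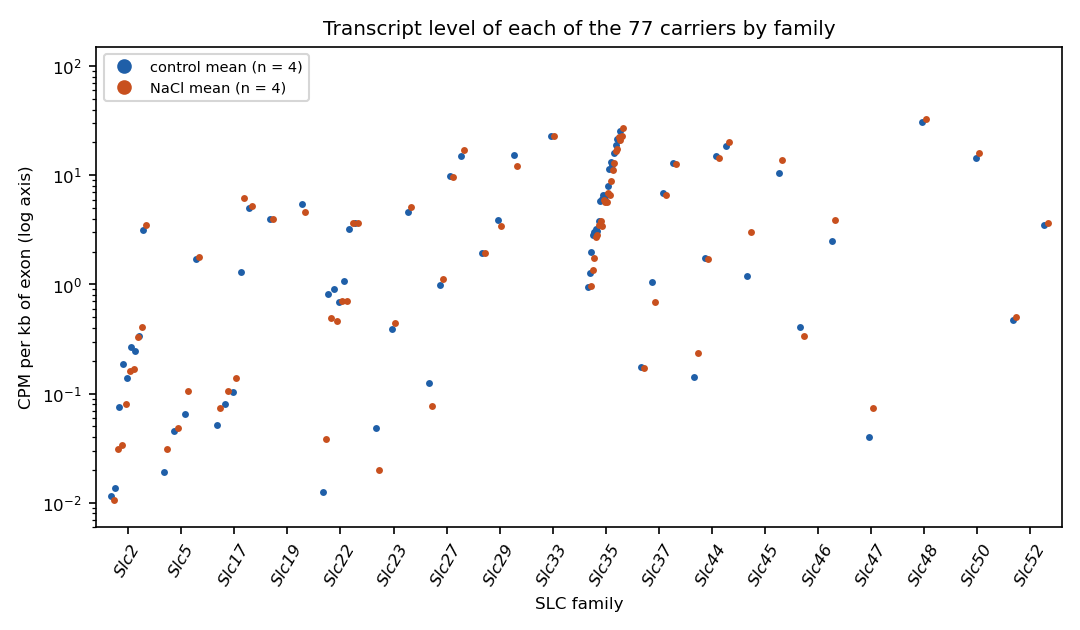
Level of each of the 77 carriers by SLC family, as mean CPM per kb of exon on a log axis. Each carrier is a pair of points, the control mean in blue and the NaCl mean in orange (n = 4 each). Most SLC35 members lie in the upper part of the range, SLC2 and SLC5 members lie mostly at the bottom, and points of a pair lie apart both for called carriers such as Slc45a3 and for carriers too low to be tested, such as Slc47a1.

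The response to NaCl was tested for each gene of the whole table by the quasi-likelihood test of edgeR, with Benjamini-Hochberg adjustment over the 14024 genes that entered. The threshold for a call was an adjusted p of 0.05, which 34.1% of all genes tested passed. Of the 77 carriers, 69 passed the filter on low counts and were tested, and 20 of these 69 (28.99%) were called, 12 higher and 8 lower, where 16.9% of all genes were called higher and 17.2% lower. The share called among carriers was thus near the background. The median log2 fold change was 0.04 over the 69 carriers and 0.00 over all genes tested. The remaining 8 carriers (Slc2a3, Slc2a13, Slc5a2, Slc5a8, Slc17a9, Slc22a17, Slc23a4 and Slc47a1) had 18 counts or fewer in every library.

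Called changes of 1.5-fold or more were seen in 7 of the 69 tested carriers (10.1%), where 7.02% of all genes tested had one. Called changes of 2-fold or more were seen in 3 (4.35%), where 3.2% of all genes tested had one. Those that rose by at least 1.5-fold were Slc17a1, Slc45a3 and Slc46a1, and those that fell were Slc2a6, Slc22a4, Slc22a21 and Slc37a1. Control and NaCl libraries were fully separate for 20 tested carriers, against 33.4% of all genes tested. These 20 included Slc2a9 and Slc48a1, which were not called, while the called Slc23a2 and Slc44a1 overlapped. When a linear drift over the library number 1 to 8 was fitted beside the group, 9 of the 20 calls held in the same direction. Those lost were Slc2a6, Slc22a4, Slc22a21, Slc27a4, Slc29a1, Slc29a3, Slc35b4, Slc35c1, Slc35e1, Slc35f2 and Slc44a1. Among these, Slc29a1 changed direction under the drift (log2 fold change -0.34 to 0.11), and the estimates of Slc27a4 (0.18 to 0.078) and Slc44a1 (0.10 to 0.024) fell to less than 0.5 times their size. Those of Slc22a21 (-0.61 to -0.49), Slc22a4 (-0.95 to -0.91), Slc29a3 (-0.20 to -0.19), Slc35f2 (0.31 to 0.29) and Slc35b4 (0.15 to 0.13) came somewhat closer to 0. Those of Slc2a6 (-1.21 to -1.44), Slc35c1 (-0.21 to -0.32) and Slc35e1 (0.13 to 0.16) moved away from it. That fit called 24.1% of all genes tested and 21.7% of the carriers. The number runs through the control group and then the NaCl group, so drift and treatment cannot be fully told apart.

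Depth set what could be seen. For the 40 tested carriers with a mean of at least 10 CPM the median standard error of the log2 fold change was 0.06, and all 27 of them that were not called had a 95% interval inside 0.5 log2 units on either side of 0. For the 19 carriers between 1 and 10 CPM the median standard error was 0.13, and 5 of 13 not called had such an interval. For the 10 carriers under 1 CPM it was 0.37, and none of the 9 not called did, so changes of that size were not excluded there.

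**Figure D2:**
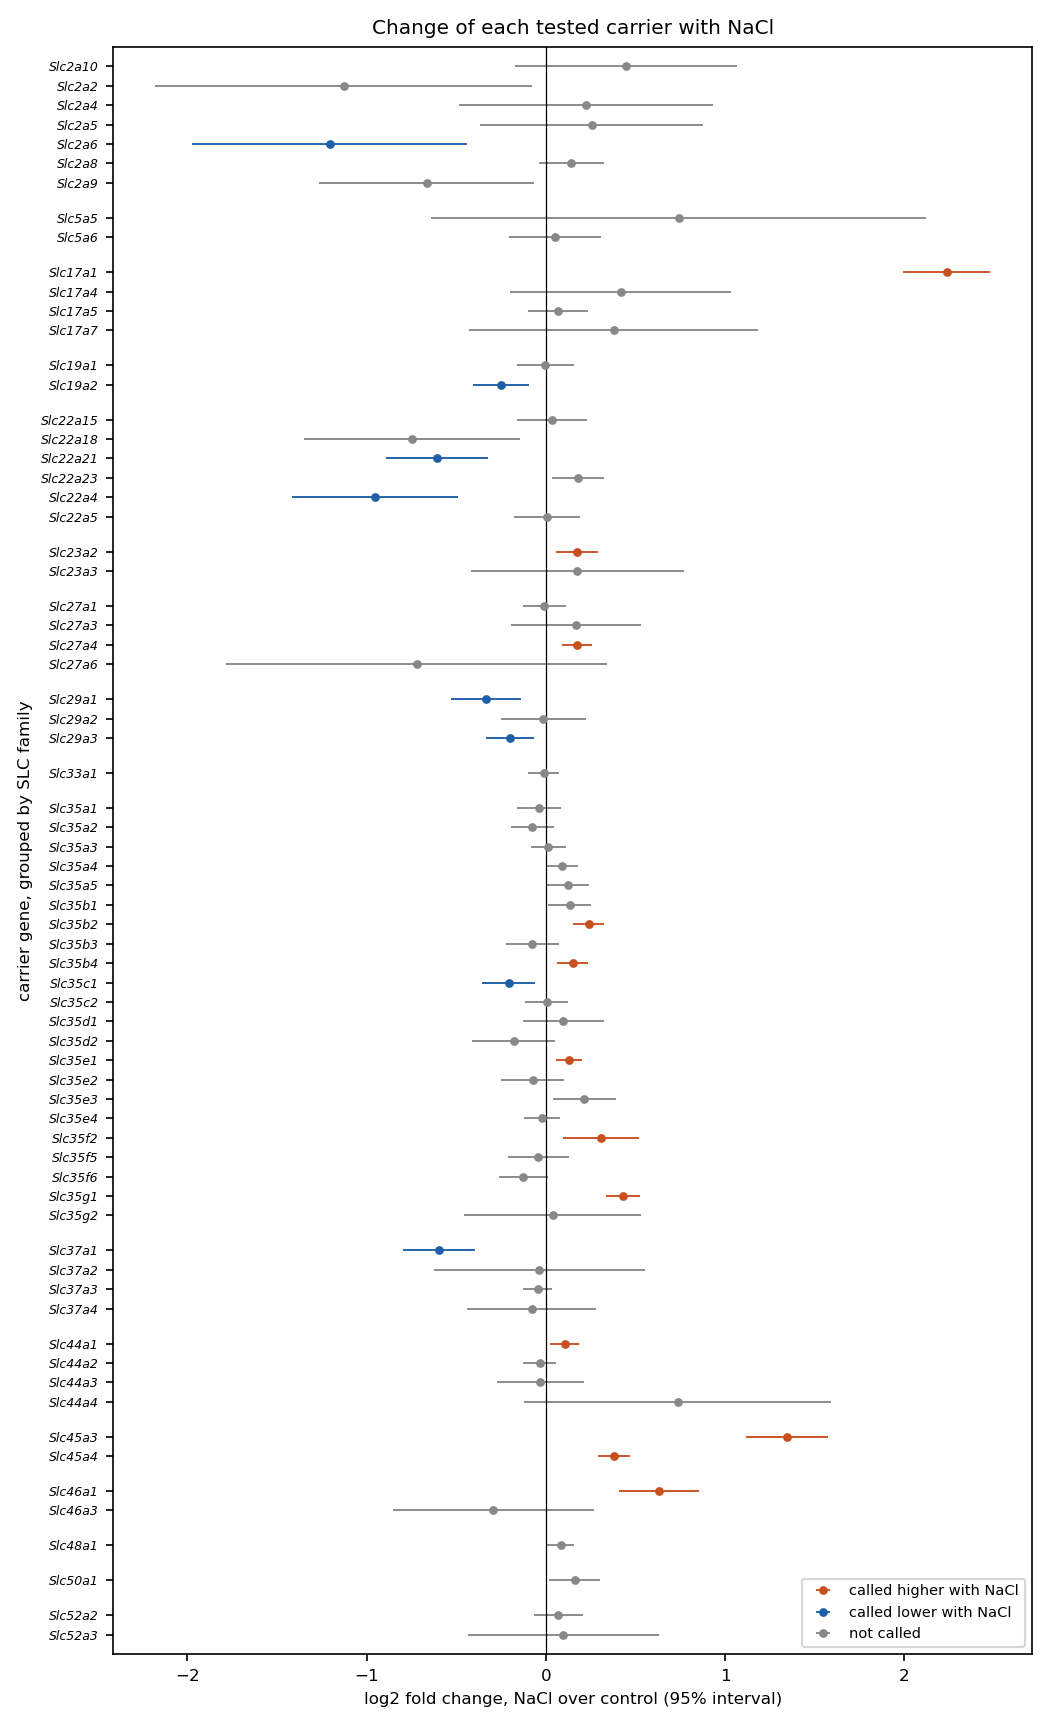
Log2 fold change (NaCl over control) of each of the 69 tested carriers, grouped by SLC family, with 95% intervals from edgeR. Orange marks carriers called higher, blue carriers called lower and grey those not called. Slc17a1 at 2.24 and Slc45a3 at 1.35 lie far to the right, most SLC35 members lie close to 0 with narrow intervals, apart from Slc35g1, Slc35f2 and the wide interval of Slc35g2, and those of low-abundance SLC2 members are wide.

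Organic anion carriers of the SLC17 family gave the largest single change. Slc17a1 (ENSMUSG00000021335, chr13:23867750-23895730) encodes a sodium-dependent phosphate, urate and organic anion carrier known from the apical membrane of the proximal tubule. Its levels were 2.47, 3.63, 3.31 and 3.03 CPM in control replicates 1 to 4 and 15.6, 13.2, 14.8 and 14.9 CPM in NaCl replicates 5 to 8. Every NaCl library was above every control library. The rise was 4.71-fold (log2 fold change 2.24, SE 0.11, edgeR adjusted p = 2.95e-10). The proximal tubule markers Lrp2 and Cubn, the 2 of 6 that were listed, were not called, at 185 ± 20.6 and 162 ± 8.89 CPM (Lrp2) and 2.16 ± 0.2299 and 2.45 ± 0.484 CPM (Cubn) in control and NaCl libraries.

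The other SLC17 members showed no called change. Slc17a5, the lysosomal sialic acid exporter, was the most abundant of them at 18.1 ± 1.74 and 19 ± 1.42 CPM (log2 fold change 0.07, 95% interval from -0.10 to 0.24). Slc17a4, a related anion carrier, was counted 25 to 28 times per control library and 27 to 44 times per NaCl library (log2 fold change 0.42, adjusted p = 0.294). Slc17a7, a vesicular glutamate carrier, had 8 to 27 counts. The summed SLC17 level went from 22.5 ± 1.88 to 35.3 ± 1.94 CPM, a ratio of 1.57 that came almost wholly from Slc17a1.

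Both SLC45 members were called higher, where 16.9% of all genes tested were. This family is described as proton-coupled sugar carriers. Slc45a3 (ENSMUSG00000026435, chr1:131962967-131982969) had 4.42, 3.89, 4.42 and 4.26 CPM in control and 12.1, 11.7, 9.94 and 9.53 CPM in NaCl libraries. The groups were far apart, with a 2.54-fold rise (log2 fold change 1.35, SE 0.11, edgeR adjusted p = 6.87e-08). The annotated gene Gm29103 overlaps 13.5% of its exon bases on the same strand and is not in the count table. Slc45a4 was more abundant, with 86.9, 86.9, 90.5 and 93.4 CPM in control and 118, 109, 115 and 124 CPM in NaCl libraries. It rose less (log2 fold change 0.38, SE 0.04, adjusted p = 3.84e-06).

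Among vitamin carriers the folate carrier stood out. Slc46a1 (ENSMUSG00000020829, chr11:78465697-78472059), which encodes the proton-coupled folate carrier, had 8.05, 9.29, 6.43 and 6.91 CPM in control and 11.9, 11.8, 11.9 and 12.0 CPM in NaCl libraries. All NaCl libraries lay above all controls, and the controls were the more scattered group. The log2 fold change was 0.63 (SE 0.11, edgeR adjusted p = 1.95e-04). The gene of a folate receptor, Folr1, rose in the same test from 6.14 ± 1.15 to 14.7 ± 0.572 CPM (log2 fold change 1.26, adjusted p = 2.01e-07). Slc19a1, the reduced folate carrier, was level at 18.3 ± 1.71 and 18.3 ± 0.696 CPM, with a 95% interval from -0.16 to 0.15 on the log2 scale.

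The thiamine carrier gene Slc19a2 fell, from 19.4, 21.7, 22.4 and 20.8 CPM in control to 16.5, 16.3, 18.6 and 19.4 CPM in NaCl libraries. Its lowest control and highest NaCl library nearly touched (log2 fold change -0.25, SE 0.07, edgeR adjusted p = 0.0157). The ascorbate carrier gene Slc23a2 rose slightly, from 36.5 ± 2.105 to 41.2 ± 2.39 CPM (log2 fold change 0.17, adjusted p = 0.0252), with overlapping groups. The call was lost without control replicate 3 (adjusted p = 0.0512) or NaCl replicate 6 (0.0582) for Slc19a2. For Slc23a2 it was lost without any 1 of controls 3 and 4 and NaCl libraries 5 and 6 (adjusted p from 0.055 to 0.0908). The multivitamin carrier Slc5a6 (6.80 ± 1.16 and 7.06 ± 0.437 CPM) and the riboflavin carriers Slc52a2 (19.3 ± 1.29 and 20.2 ± 0.438 CPM) and Slc52a3 were not called. Of 7 vitamin carriers, 3 were called (42.9%, where 34.1% of all genes tested were), 2 higher and 1 lower.

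Of the SLC22 organic ion carriers, 2 of 6 tested were called, which is 33.3% and near the 34.1% of all genes tested. Both fell, and both belong to the carnitine carrier cluster on chromosome 11. Slc22a4 (ENSMUSG00000020334, chr11:53983123-54028090) encodes a carrier of ergothioneine and carnitine. It had 2.03, 2.21, 2.27 and 2.70 CPM in control and 1.40, 1.47, 0.824 and 1.07 CPM in NaCl libraries (log2 fold change -0.95, SE 0.22, edgeR adjusted p = 0.00282). Slc22a21 (chr11:53949965-53980332), a mouse carnitine carrier, had 4.23, 3.96, 3.75 and 3.85 CPM in control and 2.65, 2.65, 2.38 and 2.69 CPM in NaCl libraries (log2 fold change -0.61, SE 0.13, adjusted p = 0.00215). For both genes every NaCl library was below every control library. Slc22a5 (chr11:53864542-53891660), the main high-affinity carnitine carrier, was not called, at 11.3 ± 0.3404 and 11.3 ± 1.13 CPM (95% interval of the log2 fold change from -0.18 to 0.19). Slc22a5 and Slc22a21 share 31.8% and 24.0% of their longest transcripts at 98% identity or more, so counts of this pair can be exchanged.

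Slc22a23, the most abundant SLC22 member by CPM, had 20.8 ± 0.7045 CPM in control and 23.5 ± 2.001 CPM in NaCl libraries and was just short of the threshold (adjusted p = 0.0527), as was Slc22a18 in the other direction (log2 fold change -0.75, adjusted p = 0.0526). Slc22a15 had 9.87 ± 0.719 and 10.1 ± 0.867 CPM. The summed SLC22 level of the groups overlapped, at 49.7 ± 1.09 and 49.7 ± 2.22 CPM. The related extruder Slc47a1 had 2 to 16 counts in any library.

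Of the 3 nucleoside carriers, 2 were called (66.7%, where 34.1% of all genes tested were), both lower. Slc29a1 (chr17:45585200-45599606), the main equilibrative nucleoside carrier of the plasma membrane, had 70.2, 64.4, 53.6 and 55.7 CPM in control and 51.6, 51.1, 47.7 and 42.9 CPM in NaCl libraries. The groups did not overlap, though control replicates 3 and 4 lay close to NaCl replicates 5 and 6. The log2 fold change was -0.34 (SE 0.09, edgeR adjusted p = 0.0129). With the drift over library number fitted the estimate turned to 0.11 (adjusted p = 0.451). Slc29a3, a carrier of intracellular membranes, fell from 22.8, 21.4, 24.5 and 22.9 CPM to 20.98, 19.6, 19.6 and 19.5 CPM (log2 fold change -0.20, adjusted p = 0.02), and its call was lost without control replicate 3 (0.0675). Slc29a2 was not called, at 5.904 ± 0.6485 and 5.85 ± 0.336 CPM. Gm17080 lies opposite 6.86% of the Slc29a1 exon bases and shares 12.45% of its transcript sequence. The summed SLC29 level was 89.8 ± 7.65 CPM in control and 74.1 ± 4.31 CPM in NaCl libraries, with no overlap.

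In the sugar phosphate family SLC37, Slc37a1 alone of 4 was called (25%, where 34.1% of all genes tested were). Slc37a1 (ENSMUSG00000024036, chr17:31286792-31350739), an antiporter of glucose 6-phosphate and phosphate, had 11.2, 11.8, 12.5 and 13.6 CPM in control and 7, 8.18, 8.43 and 8.77 CPM in NaCl libraries. The groups were separate (log2 fold change -0.60, SE 0.0954, edgeR adjusted p = 1.30e-04). Another annotated gene lies opposite 8.31% of the Slc37a1 exon bases. Slc37a4, the glucose 6-phosphate translocase of the endoplasmic reticulum, had 19.8 ± 2.35 and 18.7 ± 4.44 CPM (adjusted p = 0.745). Slc37a3, the most abundant member, had 70.4 ± 2.15 and 68.2 ± 1.35 CPM (95% interval of the log2 fold change from -0.13 to 0.04).

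Of 8 tested hexose carriers, Slc2a6 alone was called (12.5%, where 34.1% of all genes tested were). It was counted 29, 25, 23 and 28 times in the controls and 9, 7, 16 and 10 times with NaCl (0.605 ± 0.0441 and 0.261 ± 0.0927 CPM), so it rests on few counts. Its log2 fold change was -1.21 (SE 0.36, edgeR adjusted p = 0.0165), and the call was lost without NaCl replicate 6 (0.059). Slc2a8 had 9.87 to 10.8 CPM in control and 10.1 to 12.5 CPM in NaCl libraries (adjusted p = 0.218). Slc50a1 had 21.1 ± 1.75 and 23.7 ± 0.824 CPM (adjusted p = 0.073). The fructose carrier Slc2a5, the urate carrier Slc2a9 and Slc2a2, Slc2a4 and Slc2a10 were all under 2 CPM and not called.

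The 22 SLC35 genes formed the largest family. Of these, 6 were called (27.3%, where 34.1% of all genes tested were), 5 higher and 1 lower, none by 1.5-fold. The median log2 fold change was 0.03, and ran from -0.002261 to 0.061 with 1 library left out. With the drift over library number fitted it was 0.13, and the calls of Slc35b4, Slc35c1, Slc35e1 and Slc35f2 were lost. Slc35g1 moved most, from 56.1, 59.1, 54.2 and 61.9 CPM in control to 80.3, 75.8, 77.5 and 78.0 CPM in NaCl libraries (log2 fold change 0.43, SE 0.05, edgeR adjusted p = 1.61e-06). Slc35b2, which carries PAPS into the Golgi for sulphation, had 57.7, 59.7, 58.4 and 58.9 CPM in control and 68.0, 69.5, 72.5 and 66.9 CPM in NaCl libraries (log2 fold change 0.24, adjusted p = 2.21e-04). Slc35b4, a carrier of UDP-xylose and UDP-N-acetylglucosamine, rose from 73.6 ± 2.498 to 81.6 ± 2.84 CPM (log2 fold change 0.15, adjusted p = 0.00888). Slc35e1 rose from 94.8 ± 1.71 to 103.6 ± 1.98 CPM (log2 fold change 0.13, adjusted p = 0.00825).

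Slc35f2 rose from 8.44 ± 0.713 to 10.46 ± 1.13 CPM (log2 fold change 0.31, edgeR adjusted p = 0.0244), and the GDP-fucose carrier Slc35c1 fell from 21.7 ± 1.9 to 18.8 ± 0.402 CPM (log2 fold change -0.21, adjusted p = 0.0297). Both calls depended on single libraries. That of Slc35f2 was lost without any 1 of controls 1 and 3 and NaCl libraries 5 and 8 (adjusted p from 0.0594 to 0.083). That of Slc35c1 was lost without any 1 of controls 2 and 4 and NaCl libraries 5, 6 and 7 (from 0.0578 to 0.0973). The carriers of CMP-sialic acid (Slc35a1, 30.7 ± 2.06 and 29.8 ± 0.935 CPM), UDP-galactose (Slc35a2, 28.6 ± 1.37 and 27.1 ± 0.944 CPM) and UDP-N-acetylglucosamine (Slc35a3, 62.9 ± 2.28 and 63.5 ± 3.18 CPM) were not called, and their intervals stayed within 0.2 log2 units of 0. The summed SLC35 level was 815 ± 9.76 CPM in control and 868 ± 6.91 CPM in NaCl libraries, a ratio of 1.06 with no overlap.

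Of 8 tested fatty acid and choline carriers, 2 were called, both higher. This was 1 of 4 in each family (25%, where 34.1% of all genes tested were called). Slc27a4, a fatty acid transport protein of the endoplasmic reticulum and plasma membrane, had 66.0, 64.7, 66.2 and 69.7 CPM in control and 73.7, 74.4, 76.0 and 76.9 CPM in NaCl libraries (log2 fold change 0.18, SE 0.04, edgeR adjusted p = 0.00225). Every NaCl library was above every control. Slc27a1 was not called, at 57.1 ± 3.62 and 56.7 ± 3.86 CPM. The choline carrier Slc44a1 had 127, 125, 135 and 130 CPM in control and 141, 132, 140 and 144 CPM in NaCl libraries, which overlapped (log2 fold change 0.10, adjusted p = 0.0395). That call was lost without control replicate 1, 2 or 4 or NaCl replicate 5, 7 or 8 (adjusted p from 0.0585 to 0.128). Slc44a2 had 129.5 ± 6.43 and 126 ± 6.75 CPM (95% interval of the log2 fold change from -0.13 to 0.06). Slc44a4 (log2 fold change 0.73, 95% interval from -0.12 to 1.59) and Slc27a6 (-0.72, from -1.78 to 0.34) were too low for a narrow interval.

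The single members of the heme and acetyl-CoA families were not called. Slc48a1 had 82.6 to 86.5 CPM in control and 88.2 to 91.6 CPM in NaCl libraries, without overlap, and was not called (log2 fold change 0.08, edgeR adjusted p = 0.0784). Slc33a1 had 81.5 ± 3.97 and 80.8 ± 2.04 CPM (95% interval of the log2 fold change from -0.10 to 0.08). The annotated gene Gm26850 overlaps 32.0% of the Slc33a1 exon bases on the opposite strand, and the strand setting of the counting is not given in the sources used here.

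**Figure D3:**
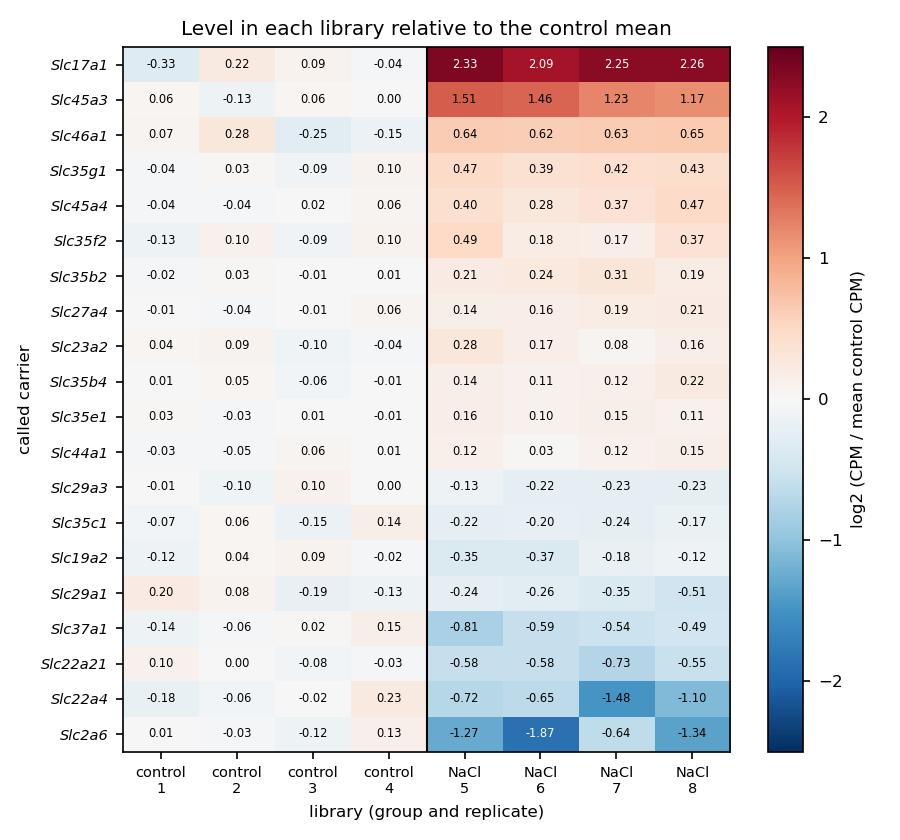
Level of the 20 called carriers in each library, as log2 of CPM over the control mean, with red above and blue below the control mean. Columns are control replicates 1 to 4 and NaCl replicates 5 to 8. Slc17a1 is the darkest red in all 4 NaCl libraries, Slc46a1 is even across them (11.8 to 12.0 CPM), and Slc2a6, with 7 to 16 counts, is uneven.

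As summed CPM per library, the families separated into 3 kinds. SLC17 (ratio of NaCl to control mean 1.57), SLC46 (1.47), SLC45 (1.36), SLC35 (1.06) and SLC48 (1.06) were higher in every NaCl than in every control library. Among single genes, 33.4% of all tested had groups that did not overlap. Slc45a4 gave 93.2% of the SLC45 sum and Slc46a1 91.4% of the SLC46 sum, and SLC48 has a single gene, so these sums mostly follow 1 gene each. Slc46a3, the other SLC46 member, was not called (log2 fold change -0.29). SLC29 (0.825), SLC19 (0.914) and SLC37 (0.927) were lower in every NaCl library. For SLC19 the lowest control (38.638 CPM) and highest NaCl library (38.588 CPM) almost met, as did those of SLC37 (101.78 and 101.74 CPM). The SLC29 sum was also lower at later library numbers, from 99.7 CPM in library 1 to 68.3 CPM in library 8, so drift and treatment cannot be fully told apart there. The other 10 families overlapped, with ratios from 0.991 for SLC33 to 1.125 for SLC23, and 1.87 for SLC47, whose single member had 16 counts or fewer in every library. The sum over all 77 carriers was 1862 to 1898 CPM in control and 1959 to 2012 CPM in NaCl libraries. No test was made of these sums.

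**Figure D4:**
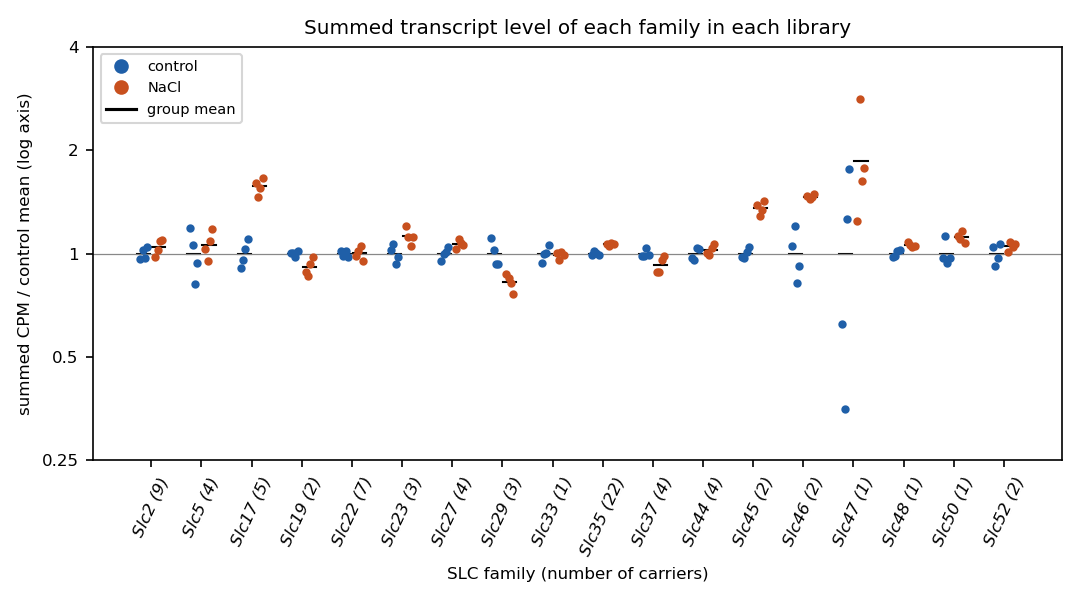
Summed CPM of each SLC family in each library, divided by the family's control mean, on a log axis, with the number of listed carriers after each family name. Blue points are control and orange points NaCl libraries, and bars are group means. SLC17, SLC45 and SLC46 lie clearly above 1, SLC29 lies below it, and SLC47, with 1 rarely counted gene, scatters widely.

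Neighbouring carriers were compared next, a comparison added after the values had been seen. All 5 pairs of tested carriers less than 100 kb apart were taken, and the log2 ratio of the pair was compared between the groups by an exact two-sided permutation test, whose smallest p with 4 against 4 libraries is 0.0286. The ratio of Slc22a5 to Slc22a4, 91.5 kb apart, went from 2.30 ± 0.21 to 3.28 ± 0.44 (exact p = 0.0286, adjusted over 5 pairs 0.0357). That of Slc22a5 to Slc22a21, 58.3 kb apart, went from 1.52 ± 0.05 to 2.12 ± 0.22 (exact p = 0.0286, adjusted 0.0357). Both p-values are the smallest this test can give and say that the ratios of the groups do not overlap. They restate the falls of Slc22a4 and Slc22a21 beside an Slc22a5 that was not called, and give no separate support. The pairs of this cluster share members and are not independent. Slc22a21 and Slc22a4, 2.79 kb apart, did not differ beyond the spread (exact p = 0.143).

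Slc35b2 and Slc29a1 lie 17.5 kb apart on chromosome 17 on opposite strands, and the former rose while the latter fell. Their log2 ratio went from -0.05 ± 0.19 to 0.52 ± 0.12 (p = 0.0286 by exact permutation, adjusted 0.0357). Each gene was already fully separate between the groups, in opposite directions. The ratio therefore had to separate too, and its p adds nothing to the gene calls. The ratio was -0.28, -0.11, 0.12 and 0.08 in libraries 1 to 4 and 0.40, 0.44, 0.60 and 0.64 in libraries 5 to 8, so it largely followed the library number, and drift and treatment cannot be fully told apart for this pair. Slc17a1 and Slc17a4 end within 159 bases of each other on opposite strands of chromosome 13. Their log2 ratio went from 2.31 ± 0.21 to 4.16 ± 0.39 (exact permutation p = 0.0286, adjusted 0.0357). This restates the rise of Slc17a1 beside the low Slc17a4, which was not called.

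**Figure D5:**
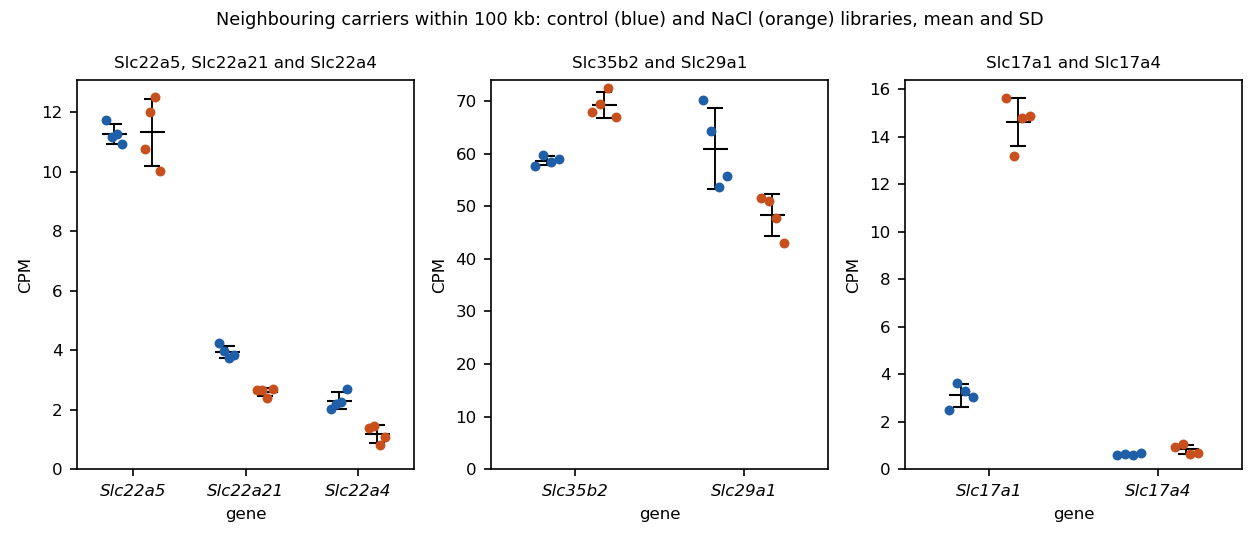
CPM of neighbouring carriers in each library, control in blue and NaCl in orange, with the mean and SD of each group (n = 4). Slc22a5 is near 11.3 CPM in both groups while Slc22a21 and Slc22a4 are lower with NaCl, Slc35b2 is higher and Slc29a1 lower, and Slc17a1 rises beside a low Slc17a4.

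Genes that make or use the carriers' cargo were read from lists of related pathways, in the same gene test. Of 90 tested genes, 15 were called higher (16.7%, where 16.9% of all genes were) and 26 lower (28.9%, where 17.2% of all genes were). Among 16 nucleoside salvage genes, 8 were called lower (50%) and 2 higher (12.5%). They included the cytidine deaminase gene Cda (15.8 ± 0.7945 to 10.3 ± 1.38 CPM, log2 fold change -0.62, edgeR adjusted p = 7.81e-05) and Aprt (77.9 ± 2.92 to 58.8 ± 4.21 CPM, log2 fold change -0.40). Among 23 nucleotide sugar synthesis genes 7 were called lower (30.4%) and 2 higher (8.7%), among them Ugdh, which makes UDP-glucuronic acid (192 ± 3.98 to 153.6 ± 7.11 CPM, log2 fold change -0.32, adjusted p = 4.46e-06). The GDP-fucose synthesis gene Gfus fell with a log2 fold change of -0.12. Of the other GDP-fucose genes in that list, Fcsk rose (log2 fold change 0.14, adjusted p = 0.0395), and Gmds and Fpgt were not called.

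Of 12 choline and phosphatidylcholine genes, 4 were called higher (33.3%, where 16.9% of all genes were) and 2 lower (16.7%, where 17.2% of all genes were). Chdh, which oxidises choline on the way to betaine, rose from 109 ± 11.02 to 205 ± 8.64 CPM (log2 fold change 0.90, edgeR adjusted p = 1.94e-07). Pnpla6, a phospholipase that forms glycerophosphocholine, rose from 71.1 ± 3.74 to 125 ± 5.09 CPM (0.82), and Gdpd5, which breaks it down, fell from 11.49 ± 0.415 to 5.81 ± 0.9595 CPM (-0.98, adjusted p = 3.14e-06). In phosphatidylcholine synthesis Chka (log2 fold change 0.41) and Chpt1 (0.16) rose, while Pcyt1a fell (-0.16, adjusted p = 0.00631). Gpcpd1, which also breaks down glycerophosphocholine, and Aldh7a1, which acts after Chdh, were not called.

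Among 13 hexose genes Akr1b3, an aldose reductase that makes sorbitol from glucose, went from 427 ± 5.52 to 2791 ± 247 CPM (log2 fold change 2.71, edgeR adjusted p = 2.26e-13), Pfkm rose and Pgm2 fell. The remaining 10 were not called. Thus 15.4% were called higher and 7.69% lower, where 16.9% and 17.2% of all genes tested were. Of 7 tested drug exporters, 2 rose (28.6%) and 4 fell (57.1%). The largest fall was that of Abcb1a, which was under 1 CPM in both groups (0.8414 ± 0.1925 to 0.0855 ± 0.0272 CPM, log2 fold change -3.24). Abcc4, an exporter of organic anions, rose from 134.5 ± 3.05 to 231 ± 15.3 CPM (log2 fold change 0.78, adjusted p = 6.76e-10), and Abcg2 fell from 15.03 ± 1.701 to 9.47 ± 1.03 CPM (-0.67, adjusted p = 7.33e-05). Of 6 tested fatty acid genes, Acsl4 and Fabp5 fell (33.3%) and none rose. Of 13 vitamin and heme genes 3 rose (23.1%), Folr1 among them, and 2 fell (15.4%). No list was tested against the shares over all genes.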

How the data were processed

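RNA was extracted with Trizol, per the labels' protocols, and sequenced as 8 libraries. The authors deposited raw counts per Ensembl gene and, for the same genes, a normalized signal, in which each library's counts were scaled by 1 number (0.864 to 1.145), as the values show. The submitters' processing notes name Trim Galore 0.6.7, STAR, DESeq2 1.34.0 and mm10. The counting program and strand setting are not given in the sources used here.

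The fit used the raw counts and edgeR 4.0.16 under R 4.3.3 (filterByExpr with the groups and its minimum of 10 counts, TMM factors, robust quasi-likelihood fit, group as the single term, F test, Benjamini-Hochberg adjustment over 14024 genes). CPM used TMM-scaled totals. Standard errors are the absolute log2 fold change over the square root of F, and intervals are 95%. Exon lengths, positions and overlaps came from GENCODE M21 (GRCm38, the mm10 build), and shared sequence from blastn 2.17.0 at 98% identity over at least 75 bases. The fitting code was tried on simulated counts with the same scatter for every gene and no drift between libraries. That trial cannot speak to a drift in the real libraries. Alternatives used limma 3.58.1 and DESeq2 1.42.0.

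The carriers, families, related lists, naming rule and tests were chosen with earlier results of these data known. The rule named the most abundant and the most changed member of each family, the 6 highest and 6 lowest called carriers whose average log2 CPM reached 1, and any carrier at the floor of 3 counts in a single group, of which there was none. It gave 27 carriers, and other members, examples from the related lists and the neighbour pairs were picked after their values were seen. Of the alternatives, 19 were planned and 2 added after seeing the data. No pair of replicates agreed within counting noise, which alone would give a chi-square per gene near 1. It was 6.50, 16.7 and 20.8 for control replicate 1 against replicates 2, 3 and 4. For NaCl replicate 5 against 6, 7 and 8 it was 8.49, 14.75 and 22.9. Other pairs lay between 5.21 and 12.04. The disagreement thus grew with distance in library number from replicates 1 and 5, and its cause was not tested.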

Additional observations from a re-analysis of the deposited data

Results flagged for a closer look

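The CPM of 27 carriers and the total counts were screened in each group, 56 sets of 4 values, for a single library far from the rest, and 4 were found, where chance gives about 1 in 20, or 2.8. NaCl replicate 7 had 2.375 CPM of Slc22a21, below the 2.649 to 2.692 CPM of the other NaCl libraries. NaCl replicate 5 had 20.98 CPM of Slc29a3, above the 19.51 to 19.6 CPM of the others. Total counts were 47.57 M in control replicate 1, against 41.77 to 42.73 M in the other controls, and 35.29 M in NaCl replicate 5, against 41.37 to 42.39 M. Without these 2 libraries 9 carriers were called higher and 7 lower, in place of 12 and 8. The calls of Slc2a6, Slc23a2, Slc35f2 and Slc44a1 were the ones lost.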

How the results depend on the processing

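No paired analysis was possible because the library numbers 1 to 8 are not shared between the groups. Over 566 refits of the 27 named carriers, 503 kept their side of the threshold without a called change of sign, and Slc29a1, called lower, turned positive under a linear drift over the library number (0.11). The estimates of 6 carriers that were not called (Slc2a8, Slc5a6, Slc17a5, Slc22a5, Slc33a1 and Slc37a3) changed sign in 11 refits, as far as -0.27 for Slc17a5 under the drift. That drift left 15 carriers called, 9 of them shared with the 20 reported and in the same direction, and called 24.1% of all genes tested. It called 3 SLC35 genes higher and moved the family medians to -0.19 (SLC2), 0.63 (SLC17), -0.18 (SLC22), 0.11 (SLC29), 0.13 (SLC35), -0.41 (SLC37) and -0.073 (SLC44), where the reported medians were 0.14, 0.40, -0.30, -0.20, 0.03, -0.06 and 0.04. The cause was not tested. With the number centred within each group, a fit added after seeing the data, 28 carriers were called and 8 SLC35 genes were called higher. This is the same model as the drift. It compares the groups at their own mean library numbers, where the drift fit compares them at a shared number. A test against a fold change of 1.5 called 215 genes higher and 113 lower, of which carriers made up 2 and 0 (Slc17a1 and Slc45a3), SLC35 genes 0 and 0, and related pathway genes 5 and 2. At an adjusted p-value under 0.01, 1545 genes were higher and 1600 lower, 3 carriers were called lower and 0 SLC35 genes were. limma-voom moved the median over carriers to 0.056. Leaving out each library gave 10 to 13 carriers called higher and 5 to 10 lower, with 5 lower without NaCl replicate 6. It gave 0 to 1 SLC35 genes lower, a median over carriers from 0.017 to 0.062 and an SLC35 median from -0.002261 to 0.061. The SLC2 median ran from 0.07 to 0.16 (lowest without control replicate 3, also low without NaCl replicate 8), that of SLC37 from -0.16 to -0.046 (farthest from 0 without NaCl replicate 8, also without control replicates 4 or 1) and that of SLC44 from 0.013 to 0.086 (lower without control replicates 1 or 2 or NaCl replicate 8, higher without control replicate 4 or NaCl replicate 6). Without control replicate 1 and NaCl replicate 5, chosen after seeing the data, the SLC35 median was -0.0002574. The other scalings, filters and tools called 20 to 23 carriers. Of the 20 called carriers, 13 were called with every library left out in turn. Counts limit the carriers under 1 CPM.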
